A study of Caenorhabditis elegans with 4 samples.

Results

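Chromosome V of Caenorhabditis elegans carried 84 of the 642 different regions that the authors' combined list of MAB-5::GFP peaks from embryos contains. The members described here are all peaks placed on chromosome V, in that combined list and in the list of each ChIP replicate, where they numbered 5156 of 29995 different intervals in replicate 1 and 5096 of 29995 in replicate 2. Intervals entered more than once with identical ends were counted once, although chromosome V had no such repeat. The chromosome was taken to end at the last replicate peak, at 20922997 (WormBase build WS220), and was divided into 3 parts of equal length by the midpoint of each interval. These parts, 6.97 Mb each, are called the left arm, the centre and the right arm. They are bins of length and not the genetically defined arms of the chromosome.

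The study mapped MAB-5 by chromatin immunoprecipitation and sequencing (ChIP-seq). ChIP samples and matched input samples came as 2 replicates each. Both kinds came from strain OP27, which has the unc-119(ed3) mutation and the transgene wgIs27, so that the input samples share every allele with the ChIP samples. The transgene carries mab-5 joined to TY1, EGFP and FLAG tags, together with a copy of unc-119. It was made by recombineering and introduced by bombardment, and the strain was outcrossed. According to the labels the fusion protein follows the expression pattern of mab-5, which covers part of the cells of an embryo. The embryos were a mixed male and hermaphrodite population, grown at 20 °C and crosslinked with 2% formaldehyde, and bound DNA was recovered with anti-GFP antibodies. The input samples were not analysed here, and the labels do not say whether the replicates were separate cultures.

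MAB-5 is a Hox protein, a homeodomain transcription factor that gives posterior cells of the worm their identity and steers the migration of neuroblasts such as the descendants of QL. Autosomes of this worm have gene-dense central regions with many broadly expressed genes. Their arms recombine more often, hold more repeats and carry more of the repressive histone mark H3K9 methylation. Chromosome V is the largest of them, and its arms are rich in clustered families of chemoreceptor genes, most of which act in mature sensory neurons. These points are background and were not measured here.

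Each list gives an interval, a score and a running peak number for every peak. Scores had a ceiling, the top score, of 2.75 in the combined list, 2.98 in replicate 1 and 2.74 in replicate 2, shared by 272, 473 and 275 entries. Peaks were therefore ranked by score and then by the authors' peak number, where a low number was read as a strong peak. Below the ceiling the number did not always follow the score: combined peak 277 had a score of 2.28 and combined peak 327 one of 2.35. The scores are the authors' own values and their scale is not named, so they serve only to order peaks within a list. The lists carry no read counts, and the depth behind a peak is unknown. All intervals and p-values below cover counting error over peaks, which are not independent replicates of the experiment.

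Regions bound by MAB-5::GFP were sparser on chromosome V than on the other autosomes, and over the whole combined list both arms had fewer than those elsewhere. The combined list held 4.01 intervals per Mb on chromosome V, against 7.21 per Mb on chromosomes I to IV pooled. The other autosomes had 8.17 per Mb on chromosome I, 6.09 on II, 8.71 on III and 6.18 on IV, so chromosome V was the lowest of the 5. The density of chromosome V was 0.557 times that of chromosomes I to IV (95% exact interval 0.436 to 0.705, two-sided exact binomial p = 2.24e-07). The low count on this chromosome was known before the chromosome was chosen for description, so this p is not independent evidence.

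The left arm held 20 combined intervals, the centre 42 and the right arm 22. This gave 2.87 per Mb in the left arm of chromosome V, against 6.62 per Mb in the left arms of chromosomes I to IV (ratio 0.433, interval 0.256 to 0.695, exact binomial p = 4.33e-04 after Benjamini-Hochberg adjustment over the 3 parts). The left-arm call was lost in the higher-scoring part of the combined list, where 16 intervals gave a ratio of 0.683 (interval 0.370 to 1.19, adjusted exact binomial p = 0.212). In the right arm the values over the whole list were 3.15 per Mb on chromosome V and 6.87 per Mb on chromosomes I to IV (ratio 0.459, interval 0.279 to 0.723, adjusted exact binomial p = 4.33e-04). In the centre they were 6.02 per Mb on chromosome V and 8.13 per Mb on chromosomes I to IV, a ratio of 0.740 whose interval of 0.515 to 1.04 includes equality (adjusted exact binomial p = 0.0945). The low count and the high centre share of chromosome V were known beforehand. The p-values by part, here and below, are therefore not independent evidence either. Both arms of chromosome V lay below the matching part of every other autosome, the nearest being the left arm of chromosome II with 3.73 per Mb. The centre of chromosome V lay above that of chromosome IV, which held 28 intervals over 5.83 Mb.

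Each replicate also had its highest chromosome V density in the centre when its 642 highest nuclear peaks were taken. Replicate 1 placed 23 of them in the left arm of chromosome V, 36 in the centre and 17 in the right arm, at 3.30, 5.16 and 2.44 per Mb. Replicate 2 placed 24, 37 and 20 there, at 3.44, 5.31 and 2.87 per Mb. Here the centre, too, fell below that of chromosomes I to IV, with a ratio of 0.631 in replicate 1 (adjusted exact binomial p = 0.00999) and 0.550 in replicate 2 (adjusted exact binomial p = 7.92e-04). The left arm of chromosome II, at 3.34 per Mb in replicate 1, was then nearly as sparse as that of chromosome V.

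**Figure D1:**
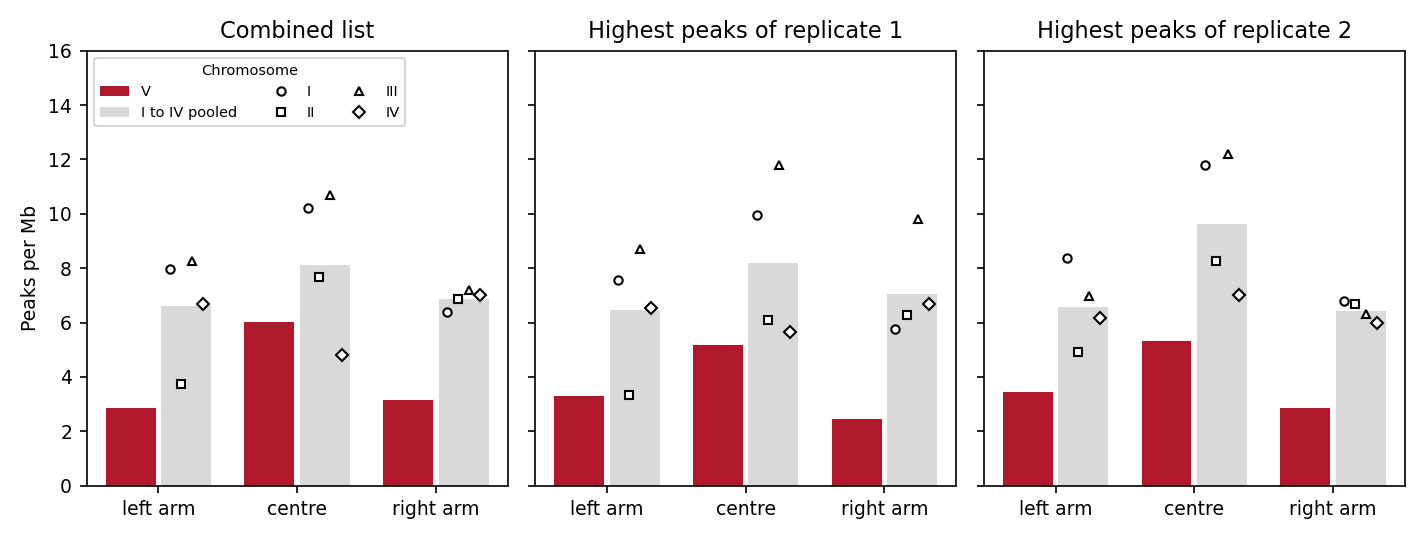
Peaks per Mb (vertical axis) in the left arm, centre and right arm of chromosome V (red bars) and of chromosomes I to IV pooled (grey bars), with open symbols for each other autosome, in the combined list and among the 642 highest peaks of each replicate. In the combined list the red bars stand at 2.87, 6.02 and 3.15 per Mb and the grey bars at 6.62, 8.13 and 6.87 per Mb.

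The centre thus held 50.0% of the chromosome V intervals in the combined list (42 of 84, 95% exact interval 38.9 to 61.1%), against 37.6% on chromosomes I to IV (167 of 444, interval 33.1 to 42.3%). The difference passed a threshold of 0.05 (odds ratio 1.66, two-sided Fisher's exact p = 0.0386), although the high centre share of chromosome V was known beforehand. It did not pass in either replicate alone, nor in the higher-scoring part of the combined list. In that part the centre held 18 of 44 intervals (40.9%) on chromosome V, the left arm 16 and the right arm 10, against a centre share of 38.3% on chromosomes I to IV (Fisher's exact p = 0.738). In replicate 1 the share was 47.4% on chromosome V and 37.7% on chromosomes I to IV (Fisher's exact p = 0.127). In replicate 2 it was 45.7% on chromosome V and 42.6% on chromosomes I to IV (Fisher's exact p = 0.628).

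The low density of chromosome V and its own centre share both weakened down the 2 replicate lists, whose ranks reach far below the combined list. Within the combined list the centre share was not highest among the strongest intervals, as given above. Among the 642 highest peaks, the density of chromosome V was 0.502 times that of chromosomes I to IV in replicate 1 and 0.513 times in replicate 2. It was 0.730 and 0.648 times among ranks 643 to 2000, and 0.851 and 0.853 times among the ranks from 20001 to 29973, the weakest calls. Over all ranks chromosome V held 246 peaks per Mb in replicate 1 and 244 in replicate 2, against 315 and 318 per Mb on chromosomes I to IV. Candidate peaks were thus also sparser on chromosome V, but less so than the strongest ones.

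The centre share on chromosome V was 47.4% and 45.7% in the first rank band of replicates 1 and 2, and 42.3% and 43.8% in the band from 643 to 2000. From rank 5001 on it stayed between 30.9 and 33.9% in both replicates, close to an even spread over the 3 parts. On chromosomes I to IV the centre share fell too, from 37.7% in replicate 1 and 42.6% in replicate 2 to 32.0% and 29.7% in the last band. In the band from 643 to 2000 it was 37.7% and 33.4% there. Between the first 2 bands the gap to chromosome V thus narrowed in replicate 1 and widened in replicate 2. The 3 parts of chromosome V thus held nearly equal numbers of weak replicate peaks. With all replicate peaks as the background in place of length, the combined intervals of chromosome V were 0.719 times as dense as those of chromosomes I to IV (exact binomial p = 0.00524), and its arms 0.563 and 0.606 times on the left and right (adjusted exact binomial p = 0.0382 each). The centre was then at 0.930 times (adjusted exact binomial p = 0.736). Mappability and input coverage along the chromosome were not tested.

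**Figure D2:**
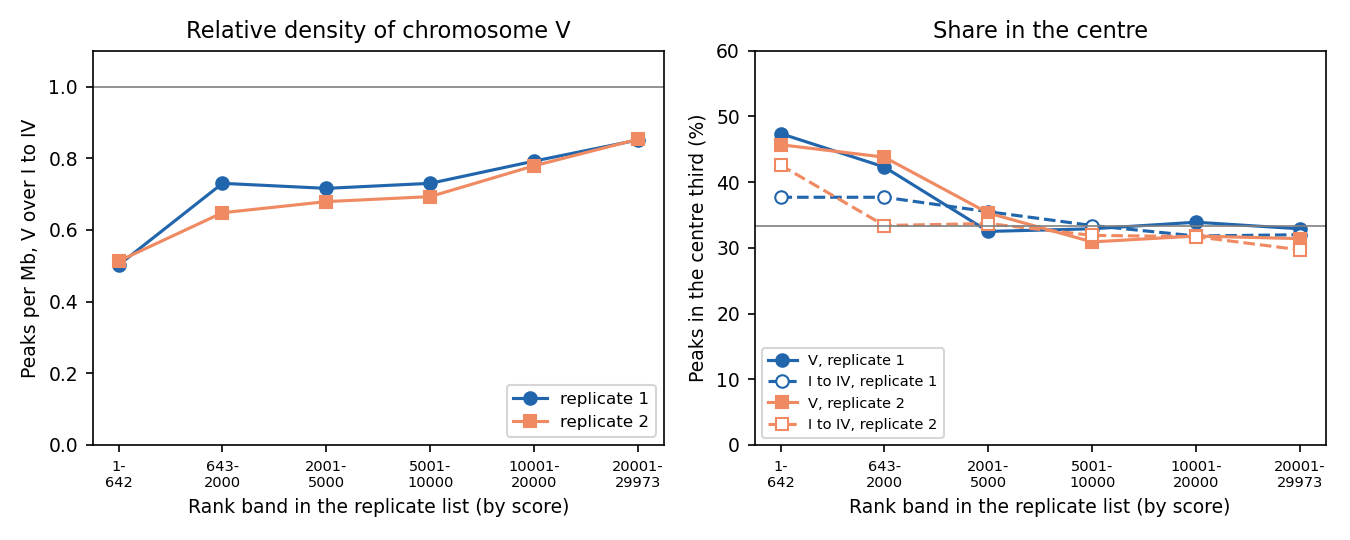
Left, density of chromosome V divided by that of chromosomes I to IV (vertical axis) in successive rank bands of the replicate lists (horizontal axis, strongest band first). Right, share of peaks in the centre on chromosome V (filled symbols) and on chromosomes I to IV (open symbols), with a grey line at an even spread. The ratio starts at 0.502 and 0.513 in replicates 1 and 2 and ends at 0.851 and 0.853, and the centre share of chromosome V starts at 47.4% and 45.7%.

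On a finer scale the combined intervals of chromosome V were densest just right of the middle. Of 10 equal segments numbered from the left end, segment 6 held 19 combined intervals, or 9.08 per Mb, and the next highest, segments 5 and 4, held 11 and 10. Segment 2 held 2 intervals (0.956 per Mb), and the other 6 held between 5 and 8. The densest segment of the other autosomes had 13.3 per Mb on I, 8.51 on II, 15.2 on III and 10.9 on IV. A dense segment was therefore not particular to chromosome V. In the replicates, segment 6 of chromosome V also ranked first, with 15 peaks in replicate 1 and 14 in replicate 2. Segment 5 followed closely with 12 and 13.

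Long stretches without any combined interval lay mainly in the arms. The longest spanned 1484 kb of the left arm (chrV:2672961-4157256) and followed directly on the strongest region of the chromosome. A second spanned 1264 kb of the left arm (chrV:4731658-5995504), and another 985 kb of the right arm (chrV:16966057-17951175). Stretches were measured between neighbouring combined intervals. The chromosome ends were not counted, although the first combined interval started only at 727844. Of the 10 longest stretches so measured, the centre held only those of 847 kb (chrV:11375641-12222590) and 587 kb (chrV:8631820-9218829). Candidate peaks were present throughout. The longest stretch had 297 peaks in replicate 1 and 322 in replicate 2, of which 2 and none were among the 642 highest of their list. The 985 kb stretch had 164 and 144. This made 200 and 217 per Mb in the longest stretch and 166 and 146 per Mb in the 985 kb stretch. Both lay below the 246 and 244 per Mb of the whole chromosome, while the 1264 kb stretch had 256 and 241 per Mb. These stretches were picked for their length, which is a description without a test.

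The share of peaks found in both replicates was not detectably different on chromosome V and on the other autosomes among the 84 highest peaks. Among the 1000 highest it was lower on chromosome V, without correction for chromosome length. Agreement was measured at equal list length, with the 84 highest chromosome V peaks of each replicate, the number of combined intervals on the chromosome, and with overlaps of at least 1 bp. Of the 84 peaks of replicate 1, 31 overlapped one of replicate 2 (36.9%, 95% exact interval 26.6 to 48.1%), where the same count over all nuclear chromosomes gave 39.3%. Of the 84 peaks of replicate 2, 32 overlapped one of replicate 1 (38.1%, interval 27.7 to 49.3%), against 39.4% over all nuclear chromosomes. The counts differ by 1 because a single replicate 1 peak can overlap more than 1 of replicate 2. Chromosomes I to IV, treated alike, shared 177 of 444 peaks (39.9%) in either direction, and the difference was within counting error (two-sided Fisher's exact p = 0.629 for replicate 1 and 0.808 for replicate 2). With the 1000 highest peaks per chromosome, replicate 1 shared 23.4% on chromosome V, against 27.4% on chromosomes I to IV (Fisher's exact p = 0.00935), and replicate 2 shared 24.7%, against 27.9% (Fisher's exact p = 0.0429). With the 250 highest no difference was detected (Fisher's exact p = 0.652 and 0.940). The tests in the 2 directions count the same overlaps and are not independent. Among the 84 highest, the other list covered only 0.194% of the bases of chromosome V in the first direction and 0.186% in the second. On chromosomes I to IV, treated alike, it covered 0.350% and 0.333%. Equal numbers of peaks are spread over more sequence on chromosome V, the longest autosome. The part of this in the difference among the 1000 highest was not tested.

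Among the parts, the right arm had the lowest share, with wide intervals. Replicate 1 shared 11 of 26 peaks in the left arm (42.3%, interval 23.4 to 63.1%), 15 of 39 in the centre (38.5%, interval 23.4 to 55.4%) and 5 of 19 in the right arm (26.3%, interval 9.15 to 51.2%). Replicate 2 shared 12 of 25 (48.0%), 15 of 39 (38.5%) and 5 of 20 (interval 8.66 to 49.1%) in the same order. These intervals overlap one another, so no order of the parts can be read from them. On chromosomes I to IV the right arms shared 35.4% and 40.8% of the peaks of replicates 1 and 2. The midpoints of the 31 shared pairs on chromosome V lay a median of 28.0 bp apart, against 38.0 bp for the 177 on chromosomes I to IV.

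**Figure D3:**
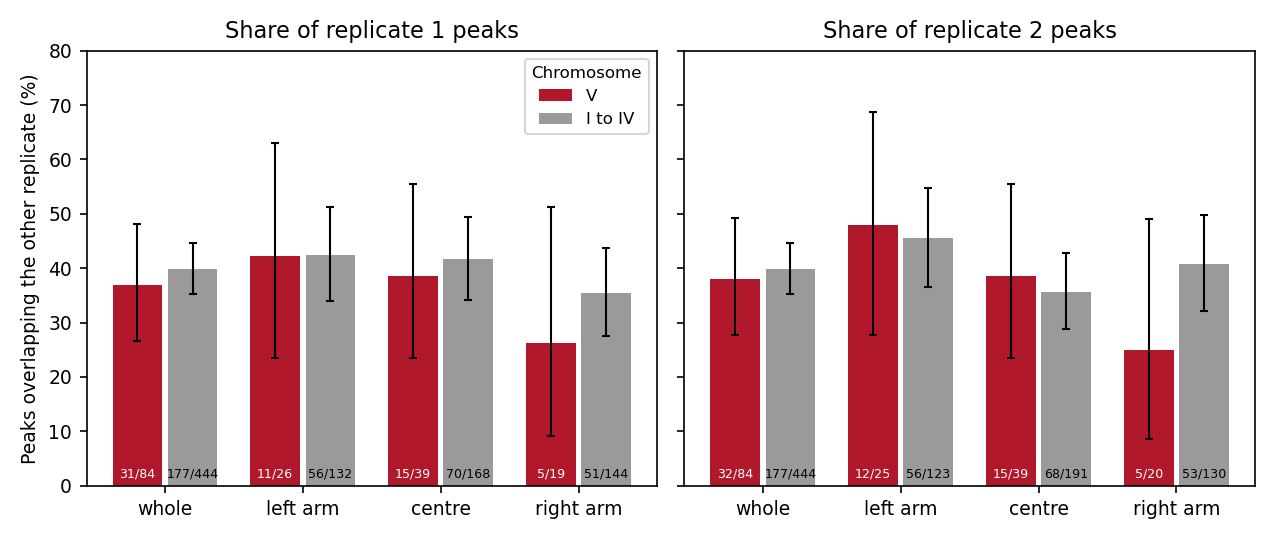
Share of the highest peaks of replicate 1 (left) and replicate 2 (right) that overlap a peak of the other replicate's list of equal length (vertical axis, percent), on chromosome V (red) and chromosomes I to IV (grey), for the whole chromosome and its 3 parts. Bars carry the counts and 95% exact intervals, and for the whole chromosome they stand at 36.9% and 38.1% on chromosome V and at 39.9% on chromosomes I to IV.

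Of the 84 combined intervals, 31 (36.9%) met a peak among the 84 highest of both replicates, 17 of replicate 1 alone, 28 of replicate 2 alone and 8 of neither. On chromosomes I to IV, treated alike, 177 of 444 (39.9%) met such peaks of both replicates. By part of chromosome V, both replicates held 12 of 20 in the left arm, 14 of 42 in the centre and 5 of 22 in the right arm. These counts by part were not compared with the other autosomes. The top score of the combined list was reached by 40 of 84 intervals (47.6%, interval 36.6 to 58.8%), where 42.1% of all nuclear intervals reached it. It was reached by 14 of 20 in the left arm (70.0%, interval 45.7 to 88.1%), 17 of 42 in the centre (40.5%, interval 25.6 to 56.7%) and 9 of 22 in the right arm (40.9%, interval 20.7 to 63.6%). The left arms of chromosomes I to IV had 41.9%, and the difference was not tested. Of the 84 intervals, 74 were 540 bp wide, and on chromosomes I to IV 50 of 444 were narrower than that. The 10 narrower ones on chromosome V, down to 135 bp, all had the top score. Of those, 5 lay in the left arm, 4 in the centre and 1 in the right arm.

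The strongest region of chromosome V stood alone in the left arm. Combined peak 9, at chrV:2672691-2672960, had number 46 in replicate 1 and 16 in replicate 2, and its nearest combined neighbour was 804 kb away. The next by peak number in the left arm was combined peak 35 (chrV:1060381-1060920), numbered 101 in replicate 1 and 65 in replicate 2. Combined peak 57 (chrV:4491760-4492004) had the numbers 54 in replicate 1 and 66 in replicate 2. All 3 had the top score in both replicates.

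Combined peak 62 (chrV:1151444-1151623) had the numbers 255 in replicate 1 and 42 in replicate 2. Combined peak 72 (chrV:4507678-4508217) had the numbers 71 in replicate 1 and 75 in replicate 2. It lay 16.1 kb from combined peak 57 and overlapped combined peak 100 (chrV:4507957-4508496), whose midpoint was 0.279 kb away. Both intervals met the same lowest-numbered peaks in each replicate, so the replicate lists do not separate them by their strongest peak. Counted once, they leave 83 separate regions on the chromosome.

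In the centre, the 5 strongest regions by peak number all lay right of the middle and had the top score in both replicates. They were combined peak 58 (chrV:12303524-12303702; peak 123 of replicate 1 and 93 of replicate 2) and combined peak 64 (chrV:10807981-10808199; peaks 72 and 98). Combined peak 84 (chrV:11313915-11314454; peaks 92 and 202) was 6.29 kb from combined peak 96 (chrV:11307821-11307972; peaks 354 and 63). Combined peak 91 (chrV:11083634-11084173; peaks 121 and 196) was 5.33 kb from the weaker combined peak 524. These 5 were thus spread out rather than in a tight cluster. Segment 6, right of the middle, by itself held 19 of the 42 central intervals. In the combined list 17 central intervals tied at the top score, and some of the others lay left of the middle. The choice of these 5 among them rests on the peak number alone.

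The right arm had few regions on which both replicates ranked high. Combined peak 60 (chrV:19522898-19523032) had the numbers 98 in replicate 1 and 83 in replicate 2. Combined peak 71 (chrV:18723515-18724054) was peak 18 of replicate 1, the lowest number of any chromosome V region in that list, and only peak 1346 of replicate 2. By combined peak number the next were combined peak 183 (chrV:20580396-20580935; peaks 888 and 343) and combined peak 186 (chrV:20656524-20657063; peaks 607 and 311). Combined peak 188 (chrV:14848503-14849042; peaks 304 and 279) followed. Combined peak 193 (chrV:16965517-16966056; peaks 233 and 244) had the top score in both replicates, as combined peak 60 did. The top score was reached in both replicates by 2 of the 22 right-arm intervals, 8 of 20 in the left arm and 7 of 42 in the centre. These small counts were not set against the same parts of chromosomes I to IV. Whether 2 of 22 is low for a right arm is therefore unknown.

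Peak numbers often differed between the replicates. Of 83 intervals with a peak in both lists, 43 had numbers within a factor of 3 (51.8%), against 217 of 441 on chromosomes I to IV (49.2%). Replicate 2 gave the lower number for 50 of the 83 and replicate 1 for 33. On chromosomes I to IV replicate 1 gave the lower number for 176 of 441, so this lean was not particular to chromosome V. The widest gaps in favour of replicate 1 were all in the right arm. They were combined peak 313 (chrV:15085338-15085877; peak 55 of replicate 1 and 4665 of replicate 2), combined peak 71 and combined peak 439 (chrV:14548320-14548859; peaks 326 and 12598). In favour of replicate 2 they were combined peak 554 (chrV:8461973-8462512; peaks 20885 and 269), combined peak 124 (chrV:10720207-10720746; peaks 3094 and 78) and combined peak 195 (chrV:773331-773465; peaks 4931 and 165). Combined peak 374 (chrV:7230787-7231326) had no replicate 1 peak and was peak 195 of replicate 2.

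**Figure D4:**
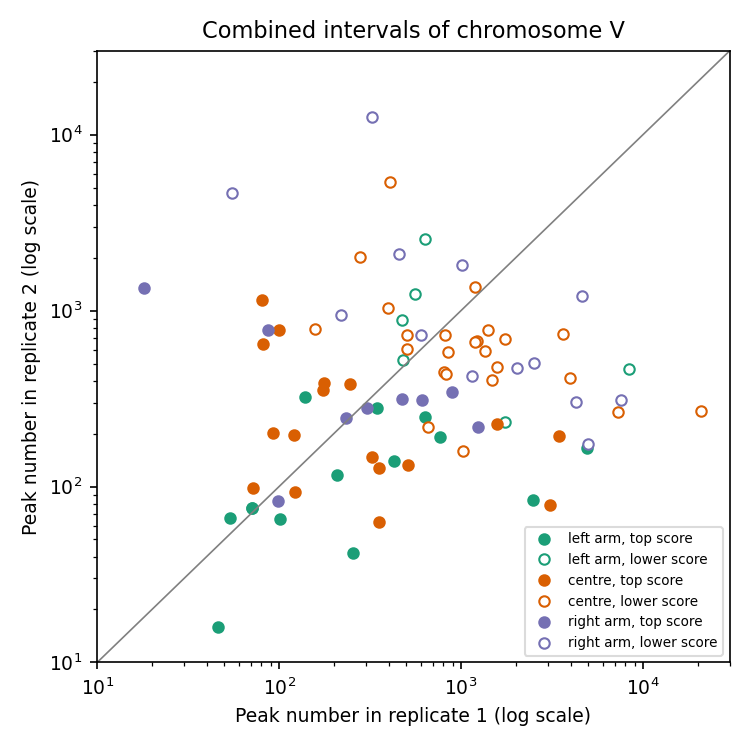
Peak number in replicate 1 (horizontal axis, log scale) and in replicate 2 (vertical axis, log scale) for the 83 combined intervals of chromosome V with a peak in both lists, coloured by part and filled where the combined score was the top score. Points on the grey line have equal numbers, low numbers are read as strong peaks, and 43 of the 83 points lie within a factor of 3 of the line.

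On chromosome V the combined list left out some top-score peaks of replicate 1 and none of replicate 2. In replicate 1, 49 peaks of chromosome V had the top score and 13 of them met no combined interval, 5 in the left arm, 6 in the centre and 2 in the right arm. The 32 top-score peaks of replicate 2 all met one. The same held broadly on chromosomes I to IV, where 100 of 318 top-score peaks of replicate 1 and 4 of 185 of replicate 2 met none. The first 5 of the 13 by number were peak 155 (chrV:9239226-9239689), peak 310 (chrV:7196373-7196836), peak 319 (chrV:5536166-5536629), peak 378 (chrV:6053276-6053739) and peak 381 (chrV:20424073-20424536). Peaks 155 and 319 had no overlapping peak in replicate 2, while the others met replicate 2 peaks 12828, 3173 and 1704.

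Combined intervals on chromosome V were also far apart. The median distance from a combined interval to its nearest neighbour was 91.9 kb on chromosome V (quartiles 28.4 and 152 kb), against 36.4 kb on chromosomes I to IV (quartiles 10.5 and 87.3 kb). The median was 92.5 kb in the left arm, 58.1 kb in the centre and 135 kb in the right arm of chromosome V, and 49.6, 24.5 and 35.8 kb in the same parts of chromosomes I to IV. Among the 84 highest peaks of each replicate the contrast was smaller in replicate 2. The median was 85.6 kb on chromosome V and 43.8 kb on chromosomes I to IV in replicate 1, and 50.4 kb on chromosome V and 34.4 kb on chromosomes I to IV in replicate 2. In the right arm of chromosome V no combined interval had a neighbour nearer than 76.1 kb, while the nearest right-arm peaks were 29.8 kb apart in replicate 1 and 7.73 kb in replicate 2. Lower density by itself gives longer distances, and its part in these values was not tested.

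Only 2 of the 84 intervals, the overlapping pair in the left arm, had a neighbour within 5 kb (2.38%, 95% exact interval 0.290 to 8.34%). The share over all nuclear chromosomes was 15.9%. Chromosomes I to IV had 84 of 444 (18.9%, interval 15.4 to 22.9%), with single chromosomes from 13.0% on I to 25.8% on III. None of the 42 intervals in the centre had so near a neighbour, which allows up to 8.41% by the exact interval. The centres of chromosomes I to IV had 26.3% together, and that of chromosome IV alone 7.14%. The replicates did have such peaks in the centre of chromosome V among their 84 highest. Replicate 1 had 6 of 39 (15.4%) and replicate 2 had 2 of 39 (5.13%), against 28.0% and 22.5% in the centres of chromosomes I to IV. Within 10 kb there were 10 intervals on chromosome V (11.9%), with 8 of them in the centre, against 24.5% on chromosomes I to IV.

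The 8 central ones formed 4 pairs, 5.33 to 7.41 kb apart. The closest joined combined peaks 91 and 524 (chrV:11078302-11078841). Combined peaks 374 and 242 (chrV:7237012-7237551) lay 6.22 kb apart, combined peaks 84 and 96 lay 6.29 kb apart, and combined peaks 124 and 147 (chrV:10727613-10728152) lay 7.41 kb apart. In the pair of peaks 124 and 147 the replicates favoured different members. The 84 highest peaks of each replicate gave 6 peaks within 5 kb (7.14%) in either replicate on chromosome V, against 19.4% and 18.7% on chromosomes I to IV for replicates 1 and 2. All candidate peaks lay close together on both, with 93.3% and 92.8% within 5 kb on chromosome V and 95.8% and 96.1% on chromosomes I to IV.

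**Figure D5:**
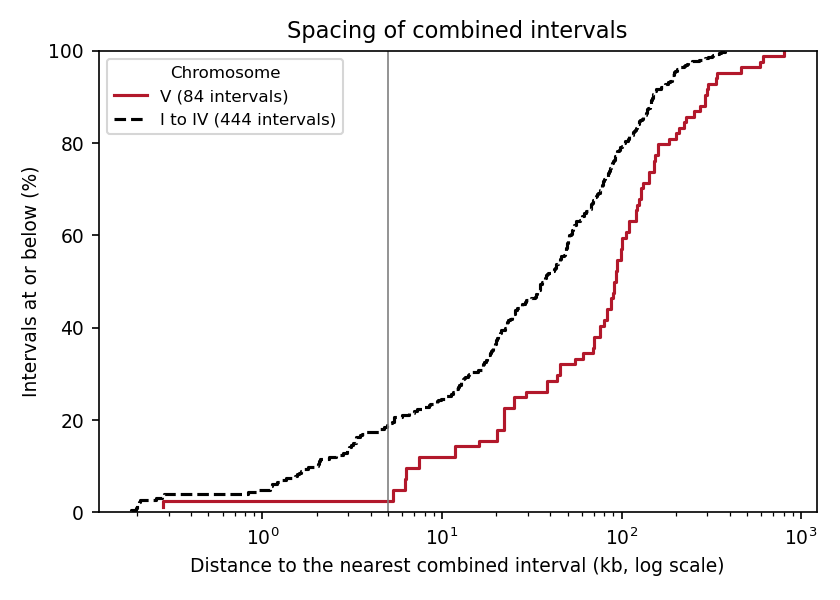
Cumulative share of combined intervals (vertical axis, percent) by distance to the nearest combined interval (horizontal axis, kb on a log scale) for chromosome V (red, solid) and chromosomes I to IV (black, dashed), with a grey line at 5 kb. At 5 kb the curves stand at 2.38% on chromosome V and 18.9% on chromosomes I to IV, and their medians are 91.9 and 36.4 kb.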

How the data were processed

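Per the file headers and source column, the authors used SPP for peak calling and IDR (irreproducible discovery rate) for selection, in coordinates of WormBase build WS220. Aligner, versions, thresholds and the making of the combined list: not given in the sources used here. The authors deposited a score per peak of unnamed unit. Only order within a list was used, on 3 lists and nuclear chromosomes. Python 3.11.15, numpy 2.4.6, pandas 2.3.3 and scipy 1.17.1 counted midpoints per part. Densities were compared by conditional exact binomial tests and shares by Fisher's exact test, with Clopper-Pearson 95% intervals. Counting and tests were checked on made-up lists. Regions named were the 5 lowest combined peak numbers per part, pairs within 5 kb, the 3 widest replicate gaps each way, the first 5 top-score replicate peaks without a combined interval, and intervals lacking a replicate peak. Pairs within 10 kb, long stretches and combined peak 193 were named after their values had been seen. The chromosome, parts and tests were chosen with earlier results of these data known. No gene or sequence of build WS220 was used here, so none is assigned to a region.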

Additional observations from a re-analysis of the deposited data

How the results depend on the processing

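Of 78 alternative values, 63 kept their direction and side of the threshold, or, for shares without a test, their exact interval. Chromosome V stayed below chromosomes I to IV in density under every alternative tried, at 0.502 to 0.719 times, and the right arm likewise at 0.345 to 0.606 times. The left arm no longer passed in the higher-scoring part of the combined list (ratio 0.683, adjusted exact binomial p = 0.212), where 16 intervals remained. The centre ratio passed with the middle 50% as centre (0.690) and without a replicate (0.550 to 0.631). The centre share depended most on the list: the odds ratio was 1.12 in the higher-scoring part, 1.13 to 1.49 without a replicate and 1.59 with all replicate peaks as background, none of which passed, and the cause was not tested. Sharing on chromosome V fell below chromosomes I to IV past the threshold with the 1000 highest peaks per chromosome, at 23.4% of replicate 1 (Fisher's exact p = 0.00935) and 24.7% of replicate 2 (Fisher's exact p = 0.0429), against 27.4% and 27.9%. These 2 tests count the same overlaps and do not correct for chromosome length. With the 250 highest, the replicate 2 share turned slightly above that of chromosomes I to IV (33.6%, against 33.3%). In the left arm, the 1000 highest gave 22.1% and 22.9% in replicates 1 and 2. Close intervals were 11.9% within 10 kb, 0% with overlapping ones counted once, and 7.14% in either replicate. No paired analysis was possible because all 3 lists used here come from ChIP samples, so that no values of the input group could enter a fit. Unknown read depth limits every statement on weak peaks.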
